A study of Rattus norvegicus with 15 samples.

Results

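The microRNAs (miRNAs) described here are the miR-34 family of the rat heart: rno-miR-34a, rno-miR-34b and rno-miR-34c. They were taken by their names on the array, 3 of the 350 miRNAs it names, and together have 6 of its 938 probes. Hearts of male Sprague-Dawley rats were profiled on Agilent 1-colour arrays, on which Cy3-labelled RNA binds probes for mature miRNAs and each spot's brightness is read. There were 15 arrays, 5 per group, each labelled from 100 ng of total heart RNA. Control rats received vehicle (Veh). Rats of the DM group had diabetes from 1 streptozotocin injection of 60 mg/kg into the tail vein, which destroys insulin-producing cells of the pancreas, and a plasma glucose above 300 mg/dL. Rats of the GF group were made diabetic in the same way, and their glucose was then made to fluctuate by a 24 h fast and an intraperitoneal insulin injection of 0.5 IU/kg. GF therefore differs from DM by fasting and insulin together, and whole-heart RNA mixes all cell types, so fewer cells of a type and less RNA per cell cannot be told apart.

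miRNAs guide Argonaute proteins to messenger RNAs through the seed, the stretch near the 5′ end that pairs with the target, and lower their translation and stability. The miR-34 family is known as a set of direct transcriptional targets of the tumour suppressor p53, and its best-studied targets favour cell cycle progression and survival. In the heart, miR-34a is known to increase with age and after injury and to repress Sirt1 and Ppp1r10 (PNUTS), while miR-34b and miR-34c come from a shared transcript and are best known in multiciliated epithelium and testis.

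All 3 members matched RefSeq entries (GRCr8), and their mature sequences are shown because they decide which members share a seed and which the array might confuse. Array names without an arm were taken as the 5′ arm, since miR-34c* is listed separately. Capitals mark the seed, bases 2 to 8 from the 5′ end.
rno-miR-34a-5p: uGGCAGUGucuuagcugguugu
rno-miR-34b-5p: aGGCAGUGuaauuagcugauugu
rno-miR-34c-5p: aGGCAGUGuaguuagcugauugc
rno-miR-449a-5p: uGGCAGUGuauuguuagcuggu
The seed GGCAGUG was the same in all 3 members and in miR-449a, the other miRNA of the array with it. Among the 693 mature names of the RefSeq table, 5 had this seed, of which 4 were on the array. miR-34b and miR-34c were identical at 21 of 23 positions counted from the 5′ end and differed by A11G and U23C (miR-34b first). miR-34a and miR-34b matched at 11 of 22 positions without gaps, and so did miR-34a and miR-34c. As miR-34a has 22 bases and the other members 23, this count does not tell how alike they are beyond the seed. With a gap, their 3′ parts as printed line up more closely.

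The genes lie on different chromosomes. Mir34a is at chr5:165815952-165816053 on the plus strand, within the span of the long non-coding RNA gene LOC103692514. Mir34b, at chr8:60306609-60306692, and Mir34c, at chr8:60306091-60306167, lie on the minus strand 441 bases apart, both within the span of the protein-coding gene Hoatz. The annotation table gives gene spans only, so exons and introns are not stated here.

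Of 105 pairs of arrays, 5 differed by less than the error that the scanner software states (reduced chi-square 0.252 to 0.565 over 156 miRNAs; the other 100 pairs gave 1.01 to 7.88). Each such pair was of 1 group on different slides, and was averaged and counted as 1 sample: control 1 and 3, DM 2 and 4, DM 3 and 5, GF 1 and 5, and GF 2 and 4. This left 10 distinct samples, 4 control, 3 DM and 3 GF, on which all values below rest unless 15 arrays are named. The labels do not say that arrays came from separate animals, and a p-value given here speaks only of the spread among these samples, which may be technical. Control 5 stood apart from the other controls (reduced chi-square 3.51 to 4.98) and lay nearest to DM 1, an array of another group (1.17), so results are given with and without it; whether either carries the right label was not tested. Some further pairs lay just above the limit of 1, such as control 3 and 4 (1.01), and joining control 1, 3 and 4 and DM 1, 2 and 4 left 8 samples. The 75th percentile of probe signal ranged from 1749 to 3422 over the arrays, and 166 to 190 miRNAs were detected on each. All 5 heart muscle miRNAs checked (miR-1, miR-133a, miR-133b, miR-208, miR-499) were well above background on all 15 arrays, while markers of liver (miR-122) and islet (miR-375) were above it on none.

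miR-34a was the member with a firm signal, and it was higher in GF hearts than in control hearts. Both of its probes were well above background on all 15 arrays, and the brighter read 20.2 to 67.5 times the local background. Signals are given as log2 after scaling each array to its 75th percentile. In controls, miR-34a stood at 10.25 (replicates 1 and 3), 10.37 (replicate 2), 10.27 (replicate 4) and 11.00 (replicate 5). In DM it stood at 10.81 (replicate 1), 10.73 (replicates 2 and 4) and 11.44 (replicates 3 and 5). In GF it stood at 11.10 (replicates 1 and 5), 11.13 (replicates 2 and 4) and 11.22 (replicate 6). The 3 GF samples lay close together and above every control, and control 5 was the high control. The DM samples spread widely, from below control 5 to the highest value of all samples. The arrays of a close pair differed by 0.0089 to 0.12, less than the gap between DM 3 and 5 and the other DM samples, but the other DM samples lay as close to each other.

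**Figure D1:**
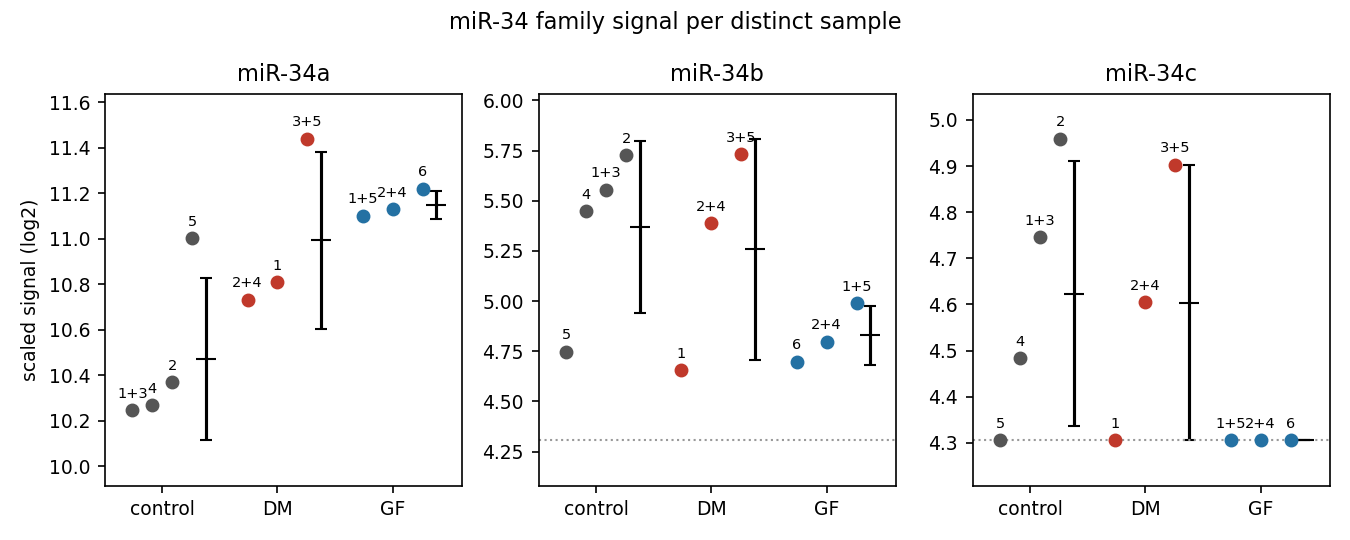
Scaled signal (log2) of miR-34a, miR-34b and miR-34c in the 10 distinct samples, by group; numbers give the replicates, black bars the mean and SD, and the dotted line the floor of 4.31. GF lies above all controls for miR-34a, and control 5 and DM 1 lie with GF for miR-34b and miR-34c.

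Mean miR-34a was highest in GF, at 11.15 ± 0.061 (SD, n = 3), followed by DM at 10.99 ± 0.39 (SD, n = 3) and control at 10.47 ± 0.36 (SD, n = 4). GF exceeded control by 0.68 log2 units (SE 0.21), or 1.60-fold, with an adjusted p of 0.075 (limma, Benjamini-Hochberg over 165 tested miRNAs), which missed the threshold of 0.05. In this comparison 7.88% of tested miRNAs passed, and no member was among them. The 13 calls rested on single samples: 28 miRNAs passed without control 5, and 0 (limma, with 29 to 47 at an unadjusted p under 0.05) without control 1 and 3, control 2, control 4 or GF 2 and 4, with the 8 samples, or with no filter on dim miRNAs. miR-34a had an unadjusted p under 0.05 (0.010), as did 30.9% of all tested miRNAs. The 3 GF samples and the 4 controls did not overlap for miR-34a, a pattern seen in 26.7% of tested miRNAs, and in 7.27% with GF higher. With the 15 arrays taken as independent the difference was 0.71 (SE 0.17, limma adjusted p = 0.0072), in a fit that called 36.4% of tested miRNAs. Without control 5 it was 0.86 (limma adjusted p = 0.014). Without DM replicates 3 and 5, which enter only the estimate of spread, it was 0.68 (limma adjusted p = 0.038, 24 of 165 called). With replicate number as a block over the 15 arrays it was 0.72 (limma adjusted p = 0.017), in a fit that called 50 of 165. Each slide held arrays of all groups, and the difference was 0.81 on slide 1 and 0.65 on slide 2.

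DM exceeded control by 0.52 (SE 0.21), or 1.44-fold, in miR-34a, more than the SD of either group, with a limma adjusted p of 0.47 (unadjusted 0.036). It was 0.30 without DM 3 and 5 and 0.70 without control 5. No miRNA passed in that comparison (0% of 165; 14, or 8.48%, had an unadjusted p under 0.05, miR-34a among them, and the 15-array limma fit called 3, or 1.82%). Over 15 arrays without control 5, a fit chosen after seeing the data, the DM difference was 0.75 (limma adjusted p = 0.0095). That fit called 25 of 165 tested miRNAs, 14 of them higher. GF and DM differed by 0.16 (SE 0.23, limma adjusted p = 0.80), within the spread of the DM samples. This rested on single samples and on the scaling: it was 0.026 without DM 2 and 4, 0.38 without DM 3 and 5, and 0.60 with no scaling (limma adjusted p = 0.16), where the median of all miRNAs was 0.35. Here too no miRNA passed over distinct samples (0% of 165; 18, or 10.9%, had an unadjusted p under 0.05, and the 15-array limma fit called 6, or 3.64%). The order of the means was GF, DM, control, and GF and DM, neighbours in it, did not differ beyond their spread.

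The 2 probes of miR-34a gave the same picture. The brighter probe exceeded the dimmer by 0.86 ± 0.043 log2 units (SD over 15 arrays), a gap that hardly varied between arrays. GF minus control was 0.72 (SE 0.21, limma adjusted p over 300 probes 0.052) by the dimmer probe and 0.68 (SE 0.21, adjusted p 0.063) by the brighter. Among all probes, 8% passed in this fit. Over 15 arrays 4 of the 5 tested member probes passed for GF against control, both of miR-34a and both of miR-34b, where 36% of probes passed. The dimmer probe of miR-34b read 9.73 to 16.7 on the GF arrays, below the floor of 19.8 used for dim signals. Its pass is therefore not read. For DM against control 1 passed over 15 arrays, the dimmer probe of miR-34a (0.66, limma adjusted p = 0.044), where 3.67% of probes passed.

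**Figure D2:**
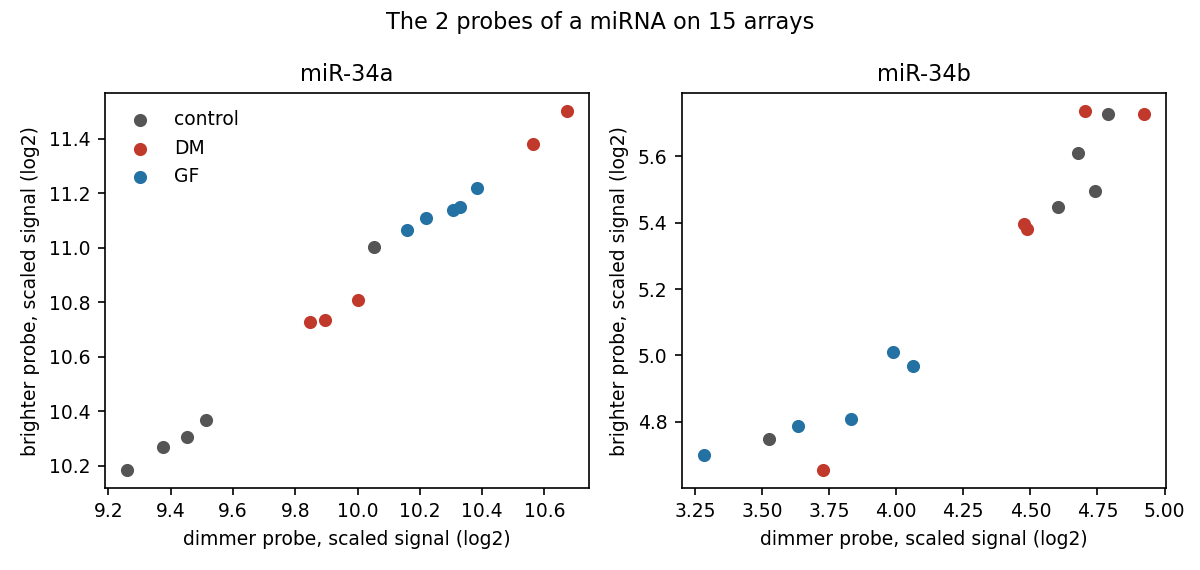
Scaled signal (log2) of the brighter against the dimmer probe of miR-34a and of miR-34b on each of the 15 arrays, coloured by group. The probes of miR-34a keep a gap of 0.86 ± 0.043, while those of miR-34b, close to background, keep one of 0.98 ± 0.17.

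In the authors' deposited table of 35 miRNAs chosen across the 3 groups, miR-34a was listed with a p of 0.0105. The authors' deposited table gave it a log2 difference of 1.07 for GF minus control and 0.59 for DM minus control. It was also in the authors' deposited table of 30 miRNAs for control against GF, and not in those of 20 for DM against GF and 5 for control against DM. miR-34b and miR-34c were in none of these tables. The deposited log2 values are not scaled between arrays: in them the median of all 149 listed miRNAs lay 0.25 higher in GF than in control over distinct samples, against -0.055 among the 165 after scaling. Relative to those medians, miR-34a was 0.77 higher in GF by the deposited values and 0.73 higher by the scaled ones.

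miR-34b was dim and ran the other way, lower in all GF samples than in 3 of the 4 controls. Its brighter probe was well above background on all 15 arrays, but read only 1.85 to 2.77 times the local background, and its dimmer probe was well above it on 7. In controls it stood at 5.55 (replicates 1 and 3), 5.73 (replicate 2), 5.45 (replicate 4) and 4.75 (replicate 5). In DM it stood at 4.65 (replicate 1), 5.39 (replicates 2 and 4) and 5.73 (replicates 3 and 5). In GF it stood at 4.99 (replicates 1 and 5), 4.80 (replicates 2 and 4) and 4.70 (replicate 6). Control 5 lay within the GF range and DM 1 just below it, so GF overlapped both other groups.

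Mean miR-34b was lowest in GF, at 4.83 ± 0.15 (SD, n = 3), with DM at 5.26 ± 0.55 (SD, n = 3) and control at 5.37 ± 0.43 (SD, n = 4). GF minus control was -0.54 (SE 0.28, limma adjusted p = 0.21), GF minus DM -0.43 (SE 0.30, limma adjusted p = 0.56) and DM minus control -0.11 (SE 0.28, limma adjusted p = 0.91). None of these passed. Over 15 arrays, GF minus control was -0.55 with a limma adjusted p of 0.046, and with replicate number as a block -0.46 with one of 0.19. Without control 5 it was -0.75 (limma adjusted p = 0.063). Without both control 5 and DM 1 it was -0.75 with a limma adjusted p of 0.015, in a fit that called 31 of 165. That fit was chosen after seeing the data. Over all 10 samples and by slide the difference in miR-34b was as follows. By slide, GF minus control in miR-34b was -0.78 on slide 1 and -0.40 on slide 2. By the dimmer probe of miR-34b the difference was -0.30 (SE 0.14, limma adjusted p = 0.17). All GF samples were set to the floor in that probe, so this is not a measured size. The sign of DM minus control in miR-34b was not settled: -0.41 on slide 1 and 0.33 on slide 2.

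miR-34c was at the limit of detection. Its brighter probe was well above background on 2 control, 4 DM and 1 GF arrays, and entered the test through DM alone. Its dimmer probe was above background on no array. In controls, miR-34c stood at 4.75 (replicates 1 and 3), 4.96 (replicate 2) and 4.48 (replicate 4), with replicate 5 at the floor of 4.31, the median over arrays of the lowest signal of any probe well above background. In DM it stood at 4.60 (replicates 2 and 4) and 4.90 (replicates 3 and 5), with replicate 1 at the floor. All 3 GF samples were at the floor. The samples at the floor were again the GF samples, control 5 and DM 1.

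With floored values, GF minus control in miR-34c was -0.32 (SE 0.17, limma adjusted p = 0.23) and GF minus DM -0.30 (SE 0.18, limma adjusted p = 0.49). DM minus control was -0.019 (SE 0.17, limma adjusted p = 0.98). Without the floor GF minus control was -0.55 (SE 0.37, limma adjusted p = 0.35), so the size depends on how signals near background are read. Since miR-34c was admitted to the test by its level in DM, and all GF samples were set to the floor, these are not measured sizes, and nothing is read from their p-values. The other arm of the hairpin, miR-34c*, was well above background on no array by any of its 4 probes. miR-449a, which has the family's seed and marks multiciliated epithelium, was likewise above background on no array by either of its 2 probes.

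For miR-34b, the largest gap between neighbouring samples, 0.40 from 4.99 to 5.39, set 5 samples low: the 3 GF samples, control 5 and DM 1. These were the 5 samples in which miR-34c lay below the floor, where its order is not read. As the samples fell into 2 sets of 5, no correlation between members is given. With 21 of 23 bases shared by miR-34b and miR-34c, whether the probes of one also bind the other was not tested. Whether their probes also bind the brighter miR-34a was not tested either. miR-34a split the samples elsewhere: its largest gap, 0.36, lay between control replicates 1 to 4 and all other samples.

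**Figure D3:**
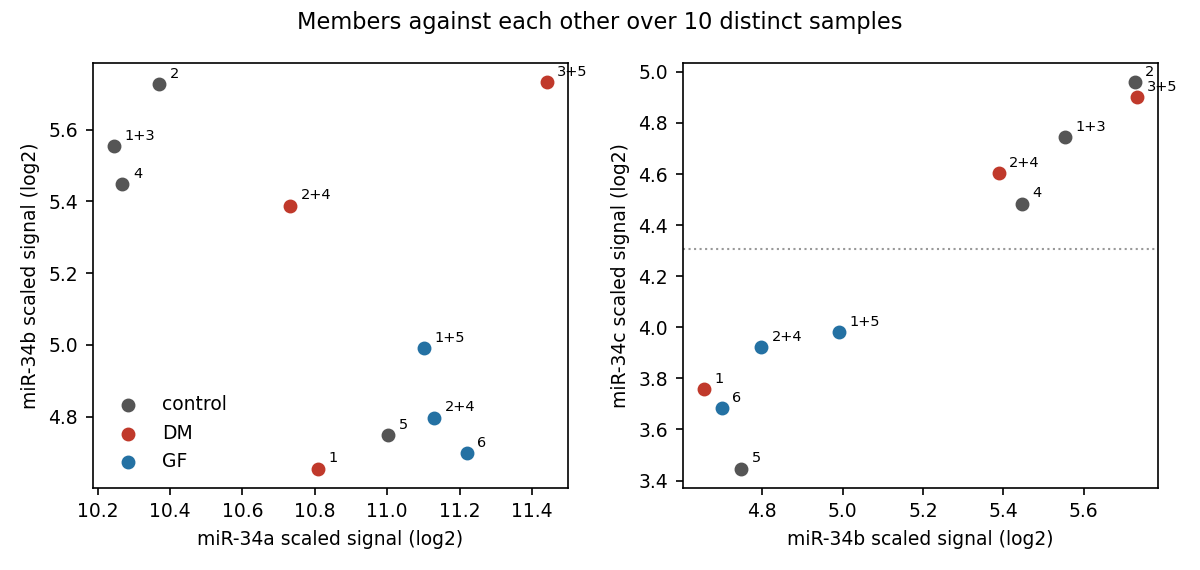
Scaled signal (log2, no floor) of miR-34b against miR-34a and of miR-34c against miR-34b in the 10 distinct samples; numbers give the replicates and the dotted line the floor of 4.31. For miR-34b and miR-34c, the GF samples, control 5 and DM 1 form the low set (below the line, order is not read), while DM 3 and 5 are high for all 3 members.

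The difference between miR-34a and miR-34b within an array does not depend on the scaling between arrays. Its absolute level has no meaning, since probes bind unequally, but its change between groups can be compared. As miR-34b lies near background, that change also depends on how background is subtracted. The log2 ratio of miR-34a to miR-34b was 4.69, 4.64, 4.82 and 6.25 in controls 1 and 3, 2, 4 and 5. It was 6.15, 5.34 and 5.71 in DM 1, 2 and 4, and 3 and 5. It was 6.11, 6.33 and 6.52 in GF 1 and 5, 2 and 4, and 6. Control 5 lay within the GF range, and the other controls lay below every DM and GF sample. Setting control 5 aside in this way follows from the values seen. How often other miRNAs or ratios split the samples so was not computed. The mean ratio was highest in GF, at 6.32 ± 0.20 (SD, n = 3), with DM at 5.74 ± 0.41 (SD, n = 3) and control at 5.10 ± 0.77 (SD, n = 4).

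GF exceeded control in this ratio by 1.22 (two-sided exact permutation p = 0.11, smallest possible 0.057, adjusted over the 3 pairs of groups 0.29). DM exceeded control by 0.63 (exact permutation p = 0.29, adjusted 0.29) and GF exceeded DM by 0.59 (exact permutation p = 0.20, smallest possible 0.10, adjusted 0.29). None can pass at this number of samples. Over 15 arrays GF exceeded control by 1.26 and exceeded DM by 0.63, each with an exact permutation p adjusted to 0.036. Without control 5, GF exceeded control by 1.60 (exact permutation p = 0.10, the smallest possible). GF exceeded control by 1.59 on slide 1 and by 1.04 on slide 2, which holds control 5. With normexp, another background correction, the ratio differed by 1.04 for GF minus control, 0.32 for DM minus control and 0.72 for GF minus DM. Ratios with miR-34c were not computed, as it was not well above background throughout.

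**Figure D4:**
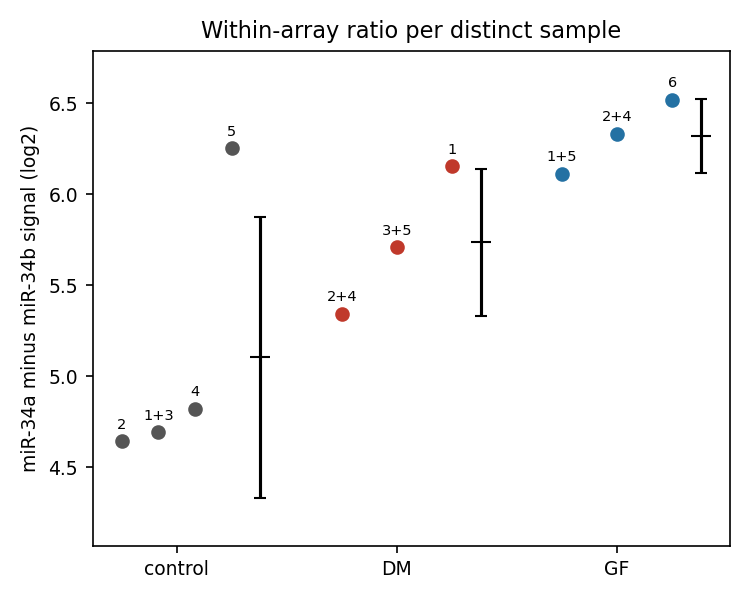
Log2 ratio of miR-34a to miR-34b signal within an array for the 10 distinct samples, by group, with replicate numbers and the mean and SD in black. Controls lie at 4.64 to 4.82 except control 5 at 6.25, and GF at 6.11 to 6.52.

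GF arrays were brighter: their 75th percentile was 2780 ± 529 (SD, n = 3) against 2205 ± 261 (SD, n = 4) in control. With no scaling the GF excess of miR-34a was 1.00 (limma adjusted p = 0.029) and that of miR-34b -0.22 (limma adjusted p = 0.58), while the median of all tested miRNAs was 0.25. Relative to that median these were 0.75 and -0.46, against 0.73 and -0.49 with scaling. The direction of GF minus control was the same in all alternatives run for each member, 37 for miR-34a and miR-34b and 35 for miR-34c.

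**Figure D5:**
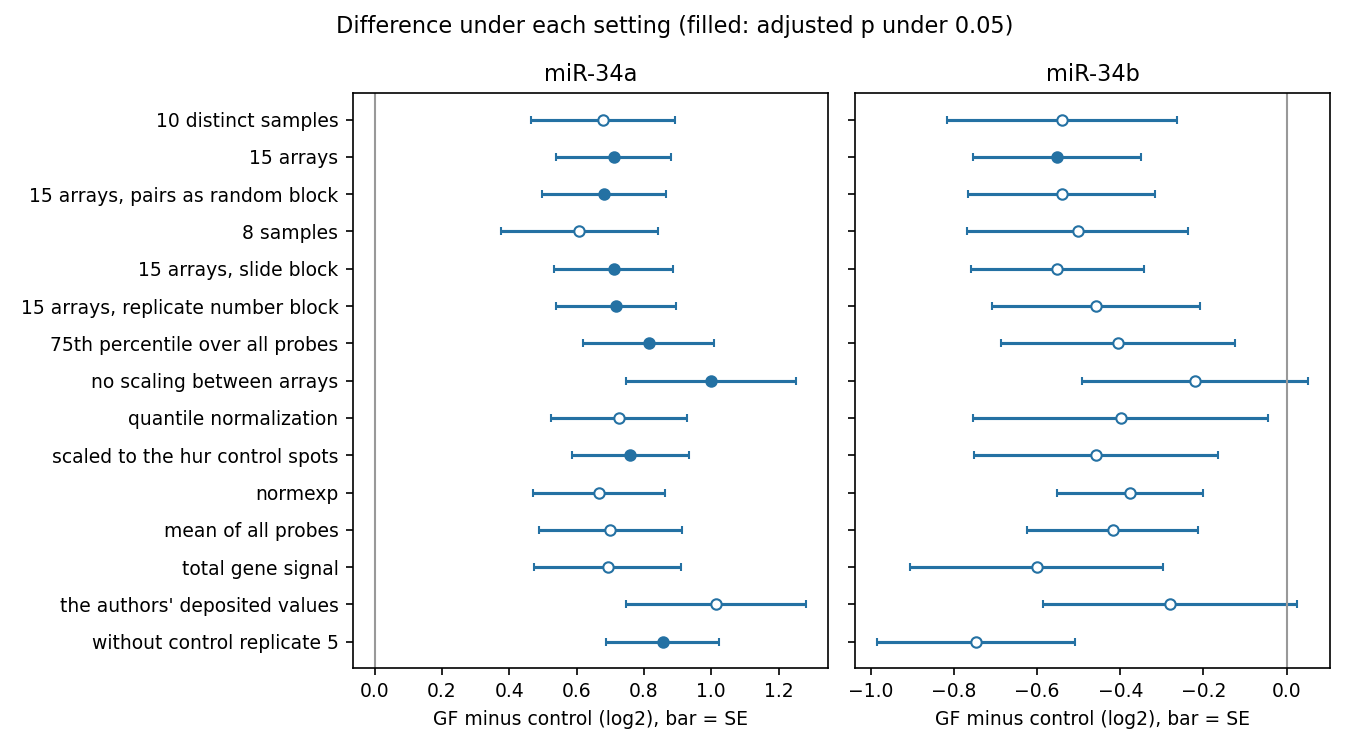
GF minus control (log2, bars are the SE) of miR-34a and miR-34b under 15 settings; filled points have a limma adjusted p under 0.05. miR-34a ranges from 0.61 to 1.01 and miR-34b from -0.22 to -0.75 in these settings, each on 1 side of 0.

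The tested miRNAs most like miR-34a over the 10 samples, out of 162 that are no members, were miR-200c (Pearson r = 0.95), miR-141 (r = 0.91) and miR-19a (r = 0.90). The median r over the 162 was -0.0041, and all share the arrays' scaling. miR-200c and miR-141 are best known from epithelium. In control 1 and 3, 2 and 4, miR-200c stood at 5.03, 4.94 and 4.84, and in control 5 at 6.34. In DM it stood at 6.28 (replicate 1), 6.01 (replicates 2 and 4) and 8.12 (replicates 3 and 5), and in GF at 8.13, 7.71 and 7.76. Control 5 and DM replicates 3 and 5 were thus the high samples of their groups for miR-200c as for miR-34a. miR-200c was 2.58 higher in GF than in control (limma adjusted p = 0.019) and miR-141 2.41 higher (limma adjusted p = 0.019). Each passed in 6 of 10 fits that left out 1 sample, with adjusted p up to 0.098. miR-141 stood at the floor of 4.31 in controls 1 and 3, 2 and 4, so its size depends on how dim signals are read. With normexp the differences were 1.43 for miR-200c and 1.08 for miR-141. By the total gene signal of the scanner software they were 2.61 and 2.96.

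The markers of other cell types moved with the groups as follows. The summed linear signal of the 5 epithelial miRNAs (miR-200a, miR-200b, miR-200c, miR-141, miR-429) was 108 to 186 in control, 163 to 464 in DM and 382 to 499 in GF, with miR-429 above background on no array. A miRNA below the floor enters the marker sums at the floor of 19.8, so part of the dim sums is the floor itself. miR-200c and miR-141 carried the rise of the epithelial sum, while miR-200a and miR-200b differed between GF and control by 0.070 and 0.016 (limma adjusted p = 0.82 and 0.96). miR-200a and miR-200b were well above background on only 7 and 6 arrays, which limits what they could show. The endothelial pair miR-126 and miR-126* summed to 19245 to 23806 in control and 15655 to 16957 in GF. The red cell pair miR-451 and miR-144 summed to 6148 to 7349 in control and 4603 to 5936 in GF. The neural pair summed to 50.7 to 55.6 in control and 39.5 to 46.0 in GF, with miR-124 above background on no array. In these 4 of the 7 marker lists above background GF and control did not overlap (26.7% of single miRNAs did not), while the sums of heart muscle, smooth muscle and leukocytes overlapped. Within those, miR-208 (-1.34, limma adjusted p = 0.019), made with a cardiac myosin gene, and the leukocyte miR-142-5p (-0.64, limma adjusted p = 0.037) were lower in GF, both named after their values were seen. The other heart muscle miRNAs were also lower in GF and did not pass. They were miR-1 (-0.14, limma adjusted p = 0.47), miR-133a (-0.34, 0.13), miR-133b (-0.32, 0.091) and miR-499 (-0.19, 0.19). Over 15 arrays miR-208, miR-133a, miR-133b and miR-499 passed as lower (limma), as did 23.6% of all tested miRNAs. The other leukocyte miRNAs went both ways in GF minus control and did not pass. They were miR-142-3p (-0.48, limma adjusted p = 0.089), miR-150 (-0.0097, 0.97) and miR-223 (0.51, 0.061). The other 3 marker lists were above background on no array. Their part in the difference of miR-34a was not tested.

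The miRNAs most like miR-34b were miR-210 (r = 0.81), known from the response to low oxygen, miR-181b (r = 0.81) and miR-196c (r = 0.79), against a median r of -0.12. The split of the samples into 2 sets of 5 enters these r, and its part was not tested. For miR-34c they were miR-210, miR-181c and miR-196c, in values that lie below the floor in 5 samples, so no r is given. None of these 4 passed for GF against control: miR-210 differed by -0.28 (limma adjusted p = 0.10), miR-181b by -0.095 (0.48), miR-181c by -0.28 (0.13) and miR-196c by -1.31 (0.055).

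Further lists of miRNAs tied to p53 were read beside the family. Of 12 miRNAs reported as induced by p53, 11 were on the array and 10 were tested. For GF against control 2 passed, miR-200c and miR-141, both also in the epithelial list, and both higher (3.03% of all tested miRNAs passed as higher, and over 15 arrays 12.7% as higher and 23.6% as lower). The median difference of the 10 was 0.047, against -0.055 over all tested miRNAs. Over 15 arrays miR-15b (-0.23, limma adjusted p = 0.012) and miR-22 (-0.42, limma adjusted p = 0.0072) passed as well, both lower. These lower calls depended on the scaling: with the percentile over all probes their adjusted p was 0.36 and 0.070, and unscaled miR-15b was 0.12 (limma adjusted p = 0.59). Calls over 15 arrays were 21 higher and 39 lower as scaled here, 31 and 10 with the all-probe percentile and 29 and 1 unscaled. miR-192 and miR-194, linked to p53 in other tissues, differed by -0.0067 and -0.048. For DM against control they differed by 0.43 and 0.49 (limma adjusted p = 0.55 each).

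Of the cluster from miR-17 to miR-92a, which p53 is known to repress, all 6 miRNAs were tested and 2 passed for GF against control, both higher: miR-19b by 0.45 (limma adjusted p = 0.039) and miR-20a by 0.47 (limma adjusted p = 0.037). The median of the 6 was 0.45. miR-19b and miR-20a passed in 4 of 10 fits that left out 1 sample. miR-17 (0.46), miR-19a (0.38) and miR-92a (0.56) passed over 15 arrays, also higher, with limma adjusted p-values of 0.0055, 0.0088 and 0.0049. Of 3 miRNAs known to lower p53 itself, miR-125b, miR-30d and miR-25, none passed (limma; 1 had an unadjusted p under 0.05, against 30.9% of all tested, and the median was -0.055), and miR-125b was -0.24 over 15 arrays (limma adjusted p = 0.048). In DM against control and GF against DM no miRNA of the 3 lists passed in either fit (limma). Over distinct samples, 8.48% of all tested miRNAs had an unadjusted p under 0.05 (limma) for DM against control. Among the lists, 2 of 10 induced and 2 of 6 cluster miRNAs did. For GF against DM 10.9% did, with 2 of 10 induced and 0 of 6 cluster miRNAs. For GF against control 30.9% did, with 4 of 10 induced and 5 of 6 cluster miRNAs. The medians for DM against control were 0.14, 0.24 and -0.073 for the induced, cluster and p53-lowering lists, against 0.027 over all tested miRNAs.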

How the data were processed

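RNA was isolated with miRNeasy columns and carried a Cy3 label, per the labels' protocols. Spots were quantified with Agilent Feature Extraction 9.5.3.1, per the submitters' processing notes; further steps are not given in the sources used here. The spot intensity files were deposited by the authors, with spot flags (another kind of value, per the file headers). The authors also deposited log2 values for 149 miRNAs and tables with p-values; recomputing their log2 values from the signals left differences of at most 2.05e-06.

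Here, processed signals of a probe's unflagged spots were averaged, scaled to an array's 75th percentile, taken over 254 probes that were well above background (over 0.5 of spots) on all 15 arrays, floored at 19.8 (log2 4.31) and logged. The brightest probe stood for a miRNA, and 165 miRNAs well above background on 3 or more arrays of 1 group were tested with limma 3.58.1 (R 4.3.3) on 10 distinct samples. The exact permutation tests used scipy 1.17.1. The normexp alternative (offset 50) used median spot signals in place of the planned mean signals. The number of arrays limits the precision. The fit was tested on simulated data.

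Named were the members and their probes, miRNAs with their seed, the 3 most like each member and those of the 3 p53 lists that passed a fit. From these lists miR-192, miR-194, miR-30d and miR-25 were named as well, though they passed neither fit. Marker miRNAs given with a fit of their own were chosen after their values were seen. The members and lists were chosen with earlier results of these data known. Same-numbered arrays of GF and control deviated together from their group means (correlation over miRNAs 0.15 to 0.47 in 4 pairs), so the fit with the number as a block is given for that comparison; those of DM did not. The authors' deposited values number some GF arrays otherwise than the sample titles, so which arrays share a number depends on the label used. The planned correlations between members are not given, since the samples fell into 2 sets.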

Additional observations from a re-analysis of the deposited data

Results flagged for a closer look

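In the 4 distinct control samples, miR-34a in replicate 5 stood at 11.00 (log2), and its gap to the nearest control was 0.84 of the group's range, past the critical value of 0.829 for 4 samples. The log2 ratio of miR-34a to miR-34b in the same sample was 6.25, with a gap of 0.89 of the range. Chance flags about 1 in 20 groups. miR-34b and miR-34c of that sample did not pass this criterion (0.71 and 0.27). As miR-34c was set to the floor in that sample, its 0.27 is not a measured gap. Groups of 3 were not tested in this way.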

How the results depend on the processing

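The number of members past the threshold for GF minus control was 0 in the analysis reported. It was 1 over 15 arrays with the close pairs as a random block, the replicate block and the slide block. Of all 165 tested miRNAs, 17, 50 and 57 passed in these fits. It was also 1 with the 75th percentile over all probes, no scaling and hur control spots (16, 18 and 11 of 165 passed). Over 15 arrays it was 2 (60 of 165). Among settings chosen after seeing the data, it was 2 without both control 5 and DM 1 (31 of 165). It was 3 over 15 arrays without control 5 (68 of 165). With quantile normalization over 15 arrays it was 2, miR-34a and miR-34c (61 of 165). With averaged probes (62 of 165) or total gene signal (54 of 165) it was 2, miR-34a and miR-34b. With the other processing choices over 15 arrays it was 1 (25 to 41 of 165, or 35 of 149 deposited). The calls of miR-34c, at the floor in GF in the analysis reported, are not read. Leaving out each sample in turn gave 0 to 1 (1 without control 5 or DM 3 and 5, where 28 and 24 of 165 passed). For DM minus control it was 1, from miR-34a, over 15 arrays with all-probe percentiles, quantile normalization, averaged probes or without control 5. Of all 165 tested miRNAs, 5, 9, 11 and 25 passed in those fits. Over 15 arrays 4 member probes passed for GF minus control and 1 for DM minus control. Of all 300 tested probes, 36% and 3.67% passed. The pass of the dimmer miR-34b probe, at the floor in GF, is not read.

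miR-34a in GF minus control passed in 13 of 13 alternatives over 15 arrays, 3 of 11 with other processing of the distinct samples, 3 of 11 with samples left out and 0 of 2 within a slide (0.81 and 0.65), with adjusted p from 0.00057 to 0.25. Those alternatives over 15 arrays called 17 to 68 of 165 tested miRNAs (35 of 149 with the deposited values). The other fits in which miR-34a passed called 11 to 31 of 165. Leave-one-out values of miR-34a ran from 0.60 to 0.86, and those of miR-34b from -0.75 to -0.42. The ratio passed over 15 arrays only (GF minus control 1.26, GF minus DM 0.63). Its leave-one-out ranges were 1.07 to 1.60 for GF minus control, 0.42 to 1.02 for DM minus control and 0.39 to 0.80 for GF minus DM.

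Signs turned only in differences that passed the threshold in no setting. The nearest to it, GF minus DM in miR-34b, had a lowest limma adjusted p of 0.066. For DM minus control, miR-34b was 0.11 with 8 samples, 0.33 within slide 2, 0.18 with normexp (0.18 over 15 arrays) and 0.012 over 15 arrays with hur spots, and with samples left out ran from -0.35 to 0.19 (-0.32 without control 5). miR-34c was 0.016 over 15 arrays and with the replicate block, 0.063 with 8 samples, 0.30 within slide 2, 0.23 with normexp, 0.013 without a floor and 0.024 without both control 5 and DM 1, and with samples left out ran from -0.17 to 0.13 (-0.13 without control 5, 0.021 without control 1 and 3). Over 15 arrays it was 0.059 unscaled, 0.21 with normexp, 0.0080 with averaged probes and 0.0011 with total gene signal. GF minus DM in miR-34b was 0.017 unscaled.

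With the replicate block the 15-array values of miR-34a and miR-34b for GF minus control were 0.72 and -0.46. Over all 13 same-numbered pairs the deviations correlated from -0.53 to 0.47. The block and the 15-array fits count both arrays of a close pair. miR-34b and miR-34c lie near background, which limits what their differences can show.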
